A study of Mus musculus with 10 samples.

Results

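Egr1, Egr2, Egr3, Klf2, Klf4, Klf6, Nr4a1, Nr4a2, Ier2 and Ier3 are immediate early genes, which cells transcribe within minutes of a stimulus. Their rows were taken by gene name from a table of 49671 gene IDs, and all 10 genes were found, once each. RNA came from sorted mouse epidermal cells carrying SmoM2-YFP, an always-active form of Smoothened that drives basal cell carcinoma in skin. The study asked what Survivin, the protein encoded by Birc5, does in tumour formation.

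The 10 libraries formed 5 groups of 2, all from skin epidermis and all carrying the Rosa-SmoM2 allele, named by genotype and by weeks of TAM (read here as tamoxifen). GOF cells were Inv-CREER/Rosa-SmoM2/Krt14rtTA/Survivin-GOF at 8 weeks. Krt14 cells at 8 weeks were Krt14-CREER/Rosa-SmoM2, and Inv cells were Inv-CREER/Rosa-SmoM2 at 8 weeks. LOF cells were Krt14-CREER/Rosa-SmoM2/Survivin LOF at 6 weeks, and their controls were Krt14-CREER/Rosa-SmoM2 at 6 weeks. Krt14 is a promoter of basal epidermal cells and involucrin (Inv) one of suprabasal cells, so SmoM2 starts in different cells in the Krt14 and Inv groups. The labels name Krt14rtTA only for GOF cells, so the effect of that transgene and of Survivin GOF cannot be told apart. The descriptions of both Inv libraries contain the word pool, and no label says whether the libraries of a group came from separate mice. The p-values below therefore measure the spread between these libraries, which may be technical. The age of the mice is not given in the labels.

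Egr1, Egr2 and Egr3 are zinc-finger transcription factors that bind GC-rich sites. They respond to growth factor signalling through ERK kinases and the serum response factor SRF. Klf2, Klf4 and Klf6 are Krüppel-like factors, and Klf4 is required for the barrier of the skin. Nr4a1 and Nr4a2 are orphan nuclear receptors that bind DNA without a known natural ligand. Ier2 and Ier3 are small proteins of the immediate early response. Dissociating and sorting a tissue is itself known to induce many immediate early genes.

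Birc5 had 7277 and 16384 normalized counts in GOF cells, 1005 and 926 in Krt14 cells at 8 weeks and 237 and 265 in Inv cells. It had 382 and 429 in LOF cells, against 961 and 1103 in Krt14 cells at 6 weeks. Birc5 was thus higher in GOF libraries and lower in LOF libraries than in their controls, the direction their labels imply. The LOF libraries were still above the Inv libraries, and Birc5 gives no check of the Krt14 and Inv labels. The labels do not say which part of the gene the LOF allele removes. Normalized counts are the authors' values, scaled so that every library has nearly the same sum, and the reads recovered from their steps were 7693153 to 8870758 per library. Keratinocyte markers (Trp63, Col17a1, Epcam, Krt14 and Krt5) summed to 158205 to 309104 in each library, as the epithelial label implies. Of 2 genes of the sex chromosomes, Xist was higher in every GOF and LOF library than in the other groups. Ddx3y was lowest in the LOF libraries and GOF replicate 2, but highest in GOF replicate 1. Xist had 7589 and 56185 normalized counts in GOF cells, 51 and 118 in Krt14 cells at 8 weeks, 194 and 145 in Inv cells, 30024 and 59594 in LOF cells and 94 and 57 in Krt14 cells at 6 weeks. Ddx3y had 3328 and 970 in GOF cells, 2453 and 2489 in Krt14 cells at 8 weeks, 2626 and 2909 in Inv cells, 1336 and 956 in LOF cells and 2289 and 2642 in Krt14 cells at 6 weeks. Both GOF and LOF libraries thus held Xist and Ddx3y RNA together, and the labels do not give the sex of the mice. The part of sex in the results on GOF and LOF cells is given below only through fits with Xist as a covariate.

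The sequence before the transcription start was available from RefSeq (GRCm38.p6) for 7 of the 10 genes, in 11 windows of 250 bases before to 50 after a start. They were searched on both strands for the CArG box of SRF (by name), the CRE of CREB (TGACGTCA), the AP-1 site (TGANTCA), the EGR site (GCGNGGGCG), the CACC box of Klf factors (CCACACCC), the NBRE of Nr4a receptors (AAAGGTCA) and the TATA box (TATAAA). The stretches from 250 to 51 bases before a start of 5 genes are shown because they hold a match, marked in capitals. None of the stretches overlaps an exon of the GENCODE M21 annotation, and those of Egr2 and Nr4a1 lie inside the annotated span of their gene, before an inner start. They are Egr2 (chr10:67537619-67537818, plus strand), Klf2 (chr8:72318812-72319011, plus strand), Klf4 (chr4:55532526-55532725, minus strand), Nr4a1 (chr15:101266596-101266795, plus strand) and Nr4a2 (chr2:57124054-57124253, minus strand), each 5′ to 3′ on the strand of its gene.
Egr2: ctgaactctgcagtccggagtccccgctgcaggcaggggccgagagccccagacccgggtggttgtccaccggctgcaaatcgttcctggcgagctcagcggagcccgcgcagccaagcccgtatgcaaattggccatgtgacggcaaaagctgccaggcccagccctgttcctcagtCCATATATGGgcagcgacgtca
Klf2: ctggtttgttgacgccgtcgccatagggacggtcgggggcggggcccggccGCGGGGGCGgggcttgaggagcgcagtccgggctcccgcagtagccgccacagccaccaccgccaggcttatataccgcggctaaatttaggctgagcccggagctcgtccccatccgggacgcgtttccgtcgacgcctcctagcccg
Klf4: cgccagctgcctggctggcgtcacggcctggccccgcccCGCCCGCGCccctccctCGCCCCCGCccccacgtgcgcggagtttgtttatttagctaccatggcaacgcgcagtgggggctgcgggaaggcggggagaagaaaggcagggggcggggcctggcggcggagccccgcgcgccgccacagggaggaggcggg
Nr4a1: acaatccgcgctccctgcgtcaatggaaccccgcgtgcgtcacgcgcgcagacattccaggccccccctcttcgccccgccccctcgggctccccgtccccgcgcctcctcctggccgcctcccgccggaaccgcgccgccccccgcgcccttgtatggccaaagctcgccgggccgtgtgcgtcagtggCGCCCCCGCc
Nr4a2: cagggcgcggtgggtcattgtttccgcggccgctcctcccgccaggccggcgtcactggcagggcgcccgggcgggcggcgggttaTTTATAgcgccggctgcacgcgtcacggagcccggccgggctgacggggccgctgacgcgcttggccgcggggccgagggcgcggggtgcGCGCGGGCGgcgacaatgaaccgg

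The capitals in Egr2 are a CArG box, which stood in 1 of the 7 genes and in 1.63% of all 32851 windows of the table. Egr2 has 5 starts in the table, and 4 of its windows hold a CArG box, but 3 of these 4 overlap and share the same box. An EGR site stood in 4 of the 7 genes and in 5.55% of all windows, with 1 site in Klf2, Nr4a1 and Nr4a2 and 2 sites in Klf4. The site reads in the gene's direction in Klf2 and Nr4a2 and in the opposite direction in Klf4 and Nr4a1. Nr4a2 also has a TATA box on the opposite strand, a match present in 13.6% of all windows. CRE, AP-1, CACC and NBRE matches, present in 1.79%, 7.81%, 3.56% and 1.51% of all windows, were in none of the 7 genes' windows. A match is a description of the letters and not a binding site.

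Per kilobase of exon, Klf4 and Egr1 had the highest median of the 5 group means and Klf2 and Nr4a2 the lowest. The order was not the same in every group, as Ier3 was highest in Krt14 cells at 6 weeks with 2151 per kilobase, against 2001 for Egr1. The 5 group means per kilobase ranged from 857 to 3823 normalized counts for Egr1 and from 762 to 2044 for Klf4. They ranged from 19.6 to 98.4 for Nr4a2 and reached at most 150 for Klf2. Krt14 cells at 8 weeks had the highest group mean for 7 genes. The exceptions were Ier3 and Nr4a2, highest in Krt14 cells at 6 weeks, and Klf2, highest in GOF cells. The lowest mean was in Inv cells for 6 genes, in LOF cells for Egr1 and Ier2, in GOF cells for Egr3 and in Krt14 cells at 6 weeks for Klf2. When the 5 groups were ordered by mean for each gene, 24 of the 40 neighbouring pairs did not overlap in their libraries and 16 did.

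**Figure D1:**
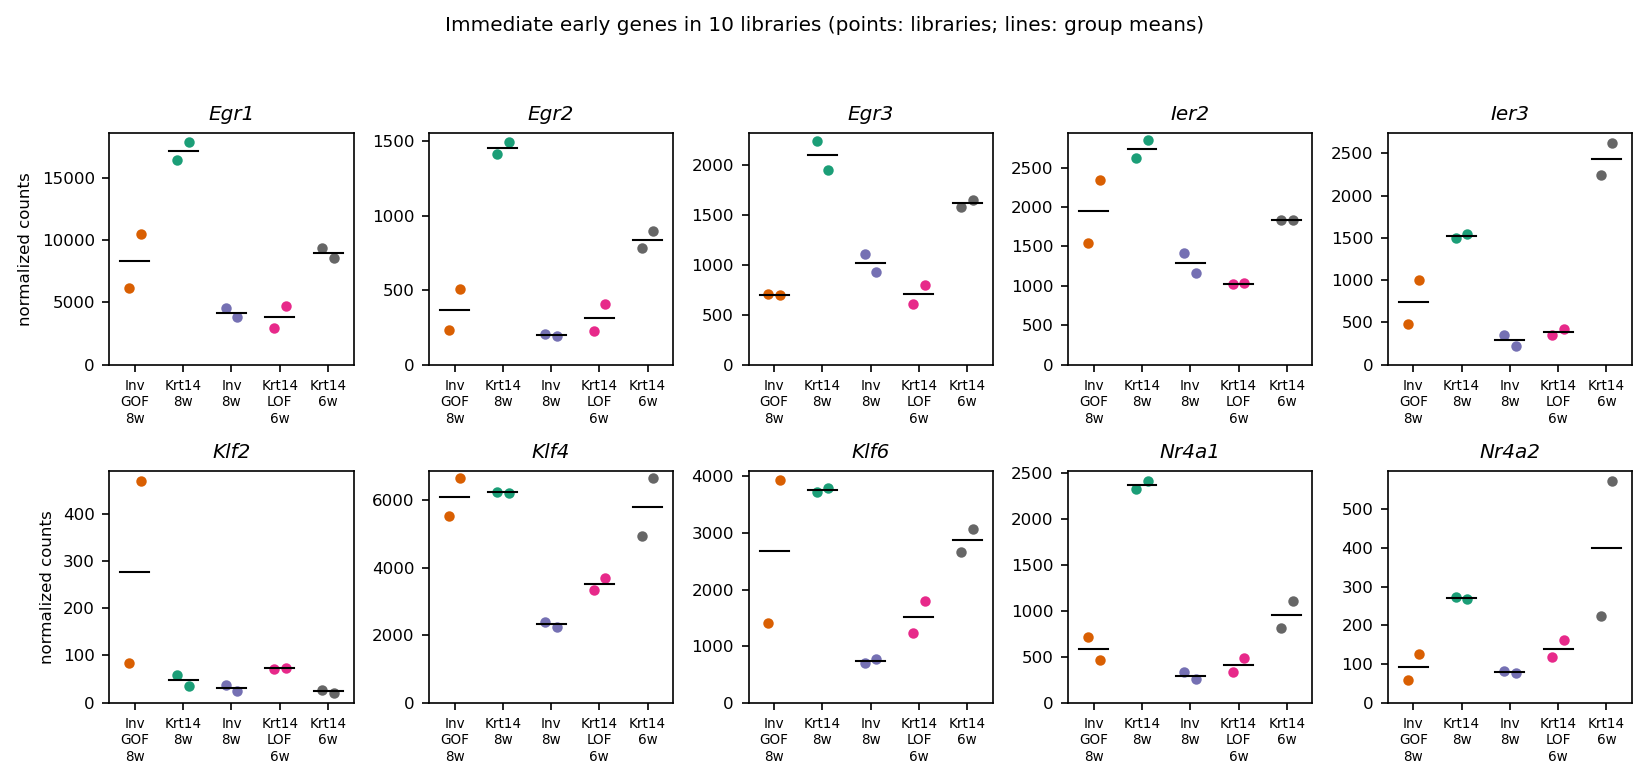
Normalized counts (vertical axis, from 0, a separate scale per gene) of the 10 genes in the 5 groups; points are libraries and lines are group means, with n = 2 libraries per group. Krt14 cells at 8 weeks have the highest mean for 7 genes, and Klf2 is high in 1 GOF library.

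Survivin LOF cells had lower levels of most of these genes than Krt14 cells of the same 6 weeks. Of the 10 genes, 8 fell, 0 rose and 2 (Klf2 and Klf6) did not pass the test (limma on log2 of normalized count + 1, adjusted p below 0.05 over 21995 genes). In this comparison 30.9% of all tested genes passed, 11.4% lower and 19.5% higher. The median log2 change was -1.22 over the 10 genes and 0.16 over all tested genes. The LOF libraries lay entirely below the Krt14 libraries for 9 genes, against 25.8% of all tested genes, and entirely above them for Klf2, against 40.8%. Lower RNA in bulk cells may come from fewer expressing cells or from less RNA per cell, which cannot be told apart here. The number of genes that fell was 6 without LOF replicate 1 or without Krt14 6-week replicate 2, and 7 without LOF replicate 2. With Xist as a linear covariate 8 genes passed, with Klf6 gained (-2.16, adjusted p = 1.90e-05) and Nr4a1 lost (-1.03, adjusted p = 0.0522), and with log2 Xist 5 passed. With log2 Xist the calls of Egr3 (-1.33, adjusted p = 0.221), Klf4 (-1.22, adjusted p = 0.204), Nr4a1 (-0.14, adjusted p = 0.954) and Nr4a2 (-3.52, adjusted p = 0.228) were lost and Klf6 was gained (-4.66, adjusted p = 0.0115).

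GOF cells had higher levels of most of these genes than Inv cells, which carry the same Inv-CREER. Here 7 genes rose, Egr3 fell, and Egr2 and Nr4a2 did not pass. Among all tested genes 15.3% passed, 6.87% higher and 8.4% lower. The median log2 change was 0.96 over the 10 genes and -0.01 over all. GOF libraries lay entirely above the Inv libraries for 8 genes, against 27% of all tested genes, and entirely below them for Egr3, against 27.9%. The number of genes called depended on single libraries. It was 3 without GOF replicate 2, 2 without Inv replicate 1 and 1 without Inv replicate 2, and it was 1 (Klf4) in a fit to these 2 groups alone or with no filter on low values. With Xist as a linear covariate 3 genes passed, and with log2 Xist 0 did. In that fit 8 of the 10 estimates were negative, those of Egr1 (-0.99), Egr2 (-1.64), Egr3 (-0.62), Ier2 (-0.65), Ier3 (-0.78), Klf2 (-1.43), Klf6 (-1.14) and Nr4a2 (-1.53). Log2 Xist nearly separates GOF and LOF libraries from all others, so that fit leaves little of the group difference to be estimated.

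Krt14 cells at 8 weeks also had more of these RNAs than Inv cells of the same 8 weeks. Of the 10 genes, 9 rose, 0 fell and Klf2 did not pass, with a median log2 change of 1.90 against -0.10 over all tested genes. Of all tested genes 19.6% passed, 8.18% higher and 11.4% lower. The Krt14 and Inv libraries did not overlap for the same 9 genes, all higher in Krt14 cells, against 25.4% of all tested genes, and no gene lay entirely lower, against 38.5%. Leaving out any 1 of the 4 libraries left 8 genes called, with Nr4a2 lost.

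GOF cells were below Krt14 cells at 8 weeks for most of the genes. They differ from Krt14 cells at once in CREER, Krt14rtTA, Survivin GOF and Xist level, whose parts cannot be told apart. Against Krt14 cells 7 genes fell, Klf2 rose, and Klf4 and Klf6 did not pass. The median log2 change was -1.11, against 0.09 over all tested genes. Of all tested genes 27.7% passed, 15.2% higher and 12.5% lower. GOF libraries lay entirely below the Krt14 libraries for 7 genes, against 25.6% of all tested genes, and entirely above them for Klf2, against 35%. The count of 8 was 5 without GOF replicate 1, 4 without Krt14 8-week replicate 1 and 3 without Krt14 8-week replicate 2. In a fit to these 2 groups alone it was 5, and with no filter on low values 4. With log2 Xist as covariate 5 genes passed. Egr3 (-1.68, adjusted p = 0.153), Klf2 (-2.65, adjusted p = 0.51), Nr4a1 (-1.09, adjusted p = 0.578) and Nr4a2 (-3.54, adjusted p = 0.259) were lost, and Klf6 was gained (-3.94, adjusted p = 0.0252). With Xist as a linear covariate Klf2 was lost (0.93, adjusted p = 0.293) and Klf6 gained (-1.54, adjusted p = 5.28e-05).

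Krt14 cells at 8 weeks, tested against Krt14 cells at 6 weeks, gave 1 call among the 10 genes. Nr4a1 rose and the other 9 did not pass, with a median log2 change of 0.48 against 0.14 over all tested genes. Of all tested genes 4.88% passed, 4.02% higher and 0.855% lower. The 8-week libraries lay entirely above the 6-week libraries for 7 genes, against 38.3% of all tested genes, and entirely below them for Ier3, against 18.2%. In a fit to these 2 groups alone 7 genes were called. Besides Nr4a1, the rises of Egr1 (adjusted p = 4.32e-04), Egr2 (adjusted p = 0.00259) and Egr3 (adjusted p = 0.0323) passed there. So did those of Ier2 (adjusted p = 0.00388) and Klf6 (adjusted p = 0.0215) and the fall of Ier3 (adjusted p = 0.00417). The 5 comparisons share libraries: Krt14 cells at 8 weeks enter 3 of them and each other group 1 or 2, so agreement between them is not independent.

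Markers of other cell types also differed between the groups. Fibroblast markers summed to 37656 and 14803 normalized counts in GOF cells, 2441 and 1805 in Krt14 cells at 8 weeks, 17944 and 19983 in Inv cells, 18817 and 19188 in LOF cells and 2673 and 1300 in Krt14 cells at 6 weeks. Most of this was Dcn, which encodes decorin, while the collagen gene Col3a1 had at most 103 in any library. Col1a2, another collagen gene, had 647 and 1006 in LOF cells and 137 and 19 in Krt14 cells at 6 weeks. It had 114 and 97 in GOF cells, 40 and 26 in Krt14 cells at 8 weeks and 237 and 238 in Inv cells. Melanocyte markers summed to 1711 and 1630 in GOF cells, 1165 and 1294 in Krt14 cells at 8 weeks, 2006 and 2064 in Inv cells, 2624 and 2487 in LOF cells and 853 and 771 in Krt14 cells at 6 weeks. Dcn and the melanocyte markers were thus lowest in the Krt14 groups, where 9 of the 10 genes had their highest mean. Macrophage and Langerhans markers summed to 209 to 1077, T cell markers to 14 to 139 and neutrophil markers to 0 to 63. The part of these cells in the results was not tested.

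**Figure D2:**
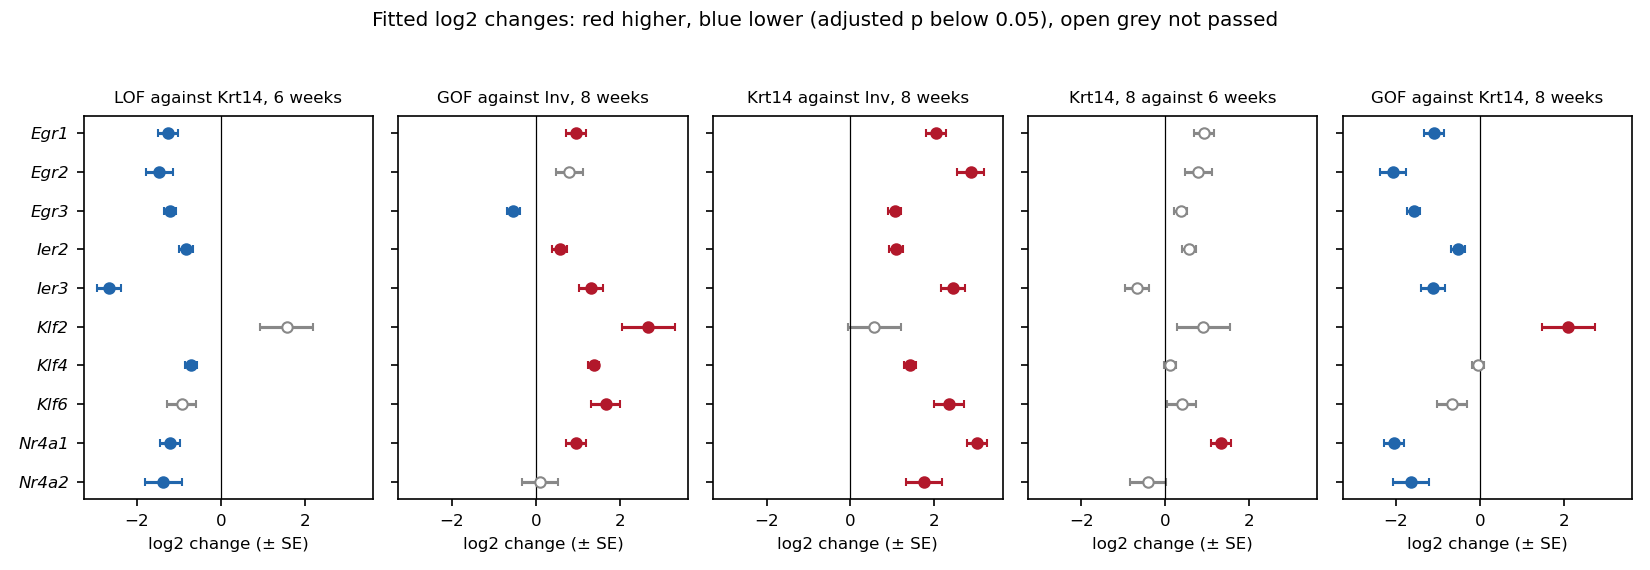
Fitted log2 change (horizontal axis) of each gene in the 5 comparisons, with the first-named group over the second. Bars are SE from 1 limma model of all 10 libraries, with n = 2 per group. Each gene thus has the same SE in every comparison, which is not the spread of the groups compared. Filled red and blue points passed the test higher and lower, and open points did not; most points lie left of 0 for LOF and right of 0 for GOF against Inv.

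Egr1 had 6185 and 10493 normalized counts in GOF cells, 16407 and 17878 in Krt14 cells at 8 weeks and 4524 and 3825 in Inv cells. It had 2956 and 4731 in LOF cells, against 9358 and 8590 in Krt14 cells at 6 weeks. GOF libraries lay between the other 8-week groups without overlap, and both LOF libraries lay below both controls. Its log2 change was -1.26 in LOF cells (SE 0.24, adjusted p = 0.00265). It was 0.95 in GOF against Inv cells (SE 0.24, adjusted p = 0.0225) and -1.09 in GOF against Krt14 cells (SE 0.24, adjusted p = 0.00673). In Krt14 against Inv cells it was 2.04 (SE 0.24, adjusted p = 1.89e-04), and in Krt14 cells at 8 against 6 weeks it was 0.93 (SE 0.24, adjusted p = 0.0512). The rise over Inv cells did not pass without GOF replicate 2 (0.57, adjusted p = 0.141), without Inv replicate 1 (1.07, adjusted p = 0.0861) or without Inv replicate 2 (0.83, adjusted p = 0.176), nor with limma's robust variance estimate (adjusted p = 0.0595). The fall against Krt14 cells did not pass without Krt14 8-week replicate 2 (-1.03, adjusted p = 0.0575).

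Egr2, a zinc-finger factor of nerve development (GRCm38, as for all genes below, chr10:67535475-67542188, plus strand), showed a wider range between groups. It had 234 and 505 normalized counts in GOF cells, 1412 and 1492 in Krt14 cells at 8 weeks and 203 and 192 in Inv cells. LOF cells had 226 and 404, against 782 and 897 in Krt14 cells at 6 weeks. Every Krt14 library lay above every library of the other 3 groups. Egr2 fell in LOF cells by 1.47 on the log2 scale (SE 0.32, adjusted p = 0.00614) and in GOF against Krt14 cells by 2.07 (SE 0.32, adjusted p = 9.57e-04). It rose by 2.87 in Krt14 against Inv cells (SE 0.32, adjusted p = 1.45e-04). GOF against Inv cells gave 0.80, which did not pass (SE 0.32, adjusted p = 0.126), but it passed without GOF replicate 1 (1.35, adjusted p = 0.00431). The fall in LOF cells did not pass without LOF replicate 1 (-1.05, adjusted p = 0.0653) or without Krt14 6-week replicate 2 (-1.37, adjusted p = 0.0528). The change between 8 and 6 weeks was 0.79 (adjusted p = 0.184).

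Egr3, a further Egr factor (chr14:70077203-70082614, plus strand), was the only one of the 10 that fell in GOF against Inv cells. It had 710 and 695 normalized counts in GOF cells, 2244 and 1956 in Krt14 cells at 8 weeks and 1111 and 926 in Inv cells. At 6 weeks it had 605 and 803 in LOF cells, against 1582 and 1653 in Krt14 cells. GOF libraries were therefore below both other 8-week groups, where those of Egr1 were between them. The log2 change was -0.53 in GOF against Inv cells (SE 0.15, adjusted p = 0.0366), -1.58 in GOF against Krt14 cells (SE 0.15, adjusted p = 4.65e-05) and -1.21 in LOF cells (SE 0.15, adjusted p = 1.89e-04). It was 1.05 in Krt14 against Inv cells (SE 0.15, adjusted p = 7.13e-04) and 0.37 between 8 and 6 weeks (adjusted p = 0.176). The fall against Inv cells did not pass without GOF replicate 2 (-0.51, adjusted p = 0.1), without Inv replicate 1 (-0.40, adjusted p = 0.243) or without Inv replicate 2 (-0.66, adjusted p = 0.0781).

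Klf4 (chr4:55527143-55532466, minus strand) was the gene whose GOF level came closest to that of Krt14 cells. GOF cells had 5516 and 6638 normalized counts, Krt14 cells at 8 weeks 6247 and 6217, and Inv cells 2401 and 2247. LOF cells had 3340 and 3680, against 4940 and 6643 in Krt14 cells at 6 weeks. GOF and Krt14 libraries at 8 weeks overlapped, and both groups lay far above Inv cells. Klf4 rose by 1.38 in GOF against Inv cells (SE 0.14, adjusted p = 1.30e-04), a call that held without each of the 4 libraries, and by 1.42 in Krt14 against Inv cells (SE 0.14, adjusted p = 4.89e-05). It fell by 0.71 in LOF cells (SE 0.14, adjusted p = 0.00306). GOF against Krt14 cells gave -0.04 (SE 0.14, adjusted p = 0.852), and 8 against 6 weeks gave 0.12 (adjusted p = 0.651), which became -0.03 under median-of-ratios scaling. Klf4 is a factor of differentiating keratinocytes, and its level is set here beside the suprabasal markers Krt1, Krt10, Ivl, Sbsn and Dsg1a. They summed to 43129 and 26579 in GOF cells, 49877 and 45555 in Krt14 cells at 8 weeks, 32518 and 34774 in Inv cells, 32457 and 23683 in LOF cells, and 15281 and 21087 in Krt14 cells at 6 weeks. The sums of LOF libraries were above those of their controls, but single markers went opposite ways. Dsg1a had 16724 and 13490 in LOF cells, against 5945 and 4946 in Krt14 cells at 6 weeks, and Krt10 had 9438 and 6692, against 2972 and 5741. Ivl had 35 and 32 in LOF cells, against 172 and 189 in Krt14 cells at 6 weeks. Sbsn had 769 and 634 in LOF cells, against 1935 and 2177, and Krt1 overlapped with 5491 and 2835, against 4257 and 8034. The part of suprabasal cells in the Klf4 result was not tested.

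Klf6, a widely expressed Krüppel-like factor (chr13:5861482-5870394, plus strand), differed most between the GOF libraries after Klf2. It had 1410 and 3934 normalized counts in GOF cells, 3725 and 3785 in Krt14 cells at 8 weeks and 701 and 775 in Inv cells. It had 1232 and 1802 in LOF cells, against 2671 and 3066 in Krt14 cells at 6 weeks. GOF replicate 2 was above both Krt14 libraries and GOF replicate 1 far below them. Klf6 rose by 1.67 in GOF against Inv cells (SE 0.35, adjusted p = 0.0102) and by 2.35 in Krt14 against Inv cells (SE 0.35, adjusted p = 9.94e-04). The first of these calls was lost without Inv replicate 1 (1.60, adjusted p = 0.0873) or without Inv replicate 2 (1.75, adjusted p = 0.0759). In LOF cells it gave -0.94, which did not pass (SE 0.35, adjusted p = 0.0653), though the libraries did not overlap. It passed there under median-of-ratios scaling (-1.08, adjusted p = 0.0453) and in a fit to these 2 groups alone (adjusted p = 0.0123). GOF against Krt14 cells gave -0.67 (adjusted p = 0.186), which was -1.41 without GOF replicate 2 (adjusted p = 5.80e-04) and 0.07 without GOF replicate 1.

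Klf2, a factor best known from endothelial cells and quiescent T cells (chr8:72319033-72321656, plus strand), had a pattern of its own in some comparisons. It rose in GOF against Krt14 cells, where 7 of the 10 genes fell, but it also rose in GOF against Inv cells with 6 others. It had 85 and 468 normalized counts in GOF cells, 58 and 36 in Krt14 cells at 8 weeks and 37 and 25 in Inv cells. It had 72 and 73 in LOF cells, against 27 and 21 in Krt14 cells at 6 weeks. GOF libraries were the highest, but GOF replicate 2 was far above GOF replicate 1, and LOF libraries were above all 3 control groups. The log2 change was 2.68 in GOF against Inv cells (SE 0.63, adjusted p = 0.0167) and 2.10 in GOF against Krt14 cells (SE 0.63, adjusted p = 0.029). Without GOF replicate 2 these were 1.45 (adjusted p = 0.079) and 0.88 (adjusted p = 0.2), so neither passed. The first was also lost without Inv replicate 1 (2.95, adjusted p = 0.0754) or Inv replicate 2 (2.40, adjusted p = 0.14), and the second without Krt14 8-week replicate 1 (2.44, adjusted p = 0.0734) or 2 (1.77, adjusted p = 0.173). In a limma-voom fit on recovered reads they were 2.64 (adjusted p = 0.0535) and 2.05 (adjusted p = 0.068). In LOF cells the change was 1.57, which did not pass (SE 0.63, adjusted p = 0.0828). It passed in a fit to these 2 groups alone (adjusted p = 0.0145) and was -0.09 with Xist as a linear covariate.

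Endothelial markers were high in the same GOF library as Klf2. The 6 markers summed to 412 and 1312 normalized counts in GOF cells, 288 and 276 in Krt14 cells at 8 weeks and 373 and 396 in Inv cells. They summed to 166 and 157 in LOF cells, where Kdr was at 0, against 252 and 244 in Krt14 cells at 6 weeks. In GOF replicate 1 and replicate 2 Cdh5, the vascular cadherin, had 15 and 221 normalized counts. Kdr, a VEGF receptor, had 41 and 294, Emcn 49 and 242, Tie1 8 and 102, Pecam1 188 and 338, and Egfl7 111 and 115. Thus 5 of the 6 markers were clearly higher in GOF replicate 2, and their part in the Klf2 result was not tested. LOF libraries lay above their controls for Klf2, a change that did not pass, and below them for the sum of the markers. Pecam1 had 70 and 75 in LOF cells, against 129 and 186 in Krt14 cells at 6 weeks, while Egfl7 overlapped with 75 and 82, against 115 and 52. Cdh5, Emcn, Tie1 and Kdr had at most 8 in any library of these groups.

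**Figure D3:**
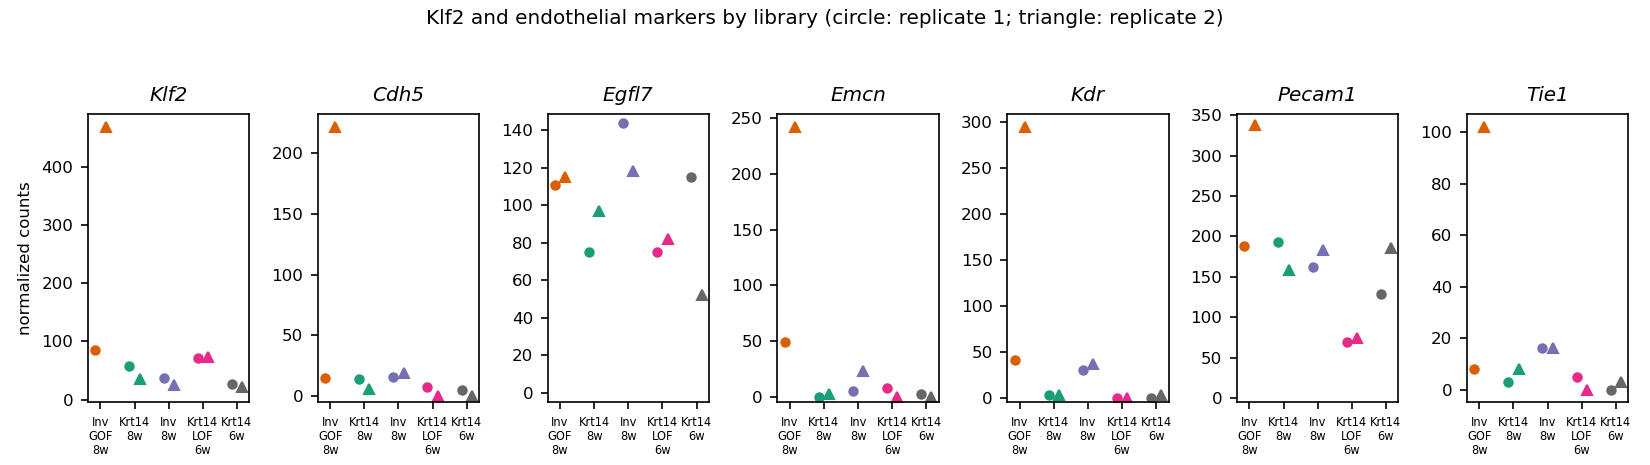
Normalized counts (vertical axis, separate scale per gene) of Klf2 and 6 endothelial markers in the 10 libraries; circles are replicate 1 and triangles replicate 2. GOF replicate 2 stands above the other 9 libraries for Klf2 and for 5 of the 6 markers, the exception being Egfl7.

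Nr4a1 (chr15:101254269-101274795, plus strand) set Krt14 cells at 8 weeks apart most clearly. It had 715 and 466 normalized counts in GOF cells, 2332 and 2418 in Krt14 cells at 8 weeks and 330 and 262 in Inv cells. LOF cells had 335 and 492, against 810 and 1103 in Krt14 cells at 6 weeks. No library of another group reached the level of Krt14 cells at 8 weeks. Nr4a1 rose by 3.01 in Krt14 against Inv cells (SE 0.24, adjusted p = 1.44e-05), the largest log2 change of the 10 genes in any comparison. It fell by 2.04 in GOF against Krt14 cells (SE 0.24, adjusted p = 1.68e-04) and by 1.22 in LOF cells (SE 0.24, adjusted p = 0.00326). The rise of 0.97 in GOF against Inv cells (SE 0.24, adjusted p = 0.021) was lost without GOF replicate 1 (0.66, adjusted p = 0.0687), Inv replicate 1 (1.14, adjusted p = 0.0688) or Inv replicate 2 (0.80, adjusted p = 0.176). In Krt14 cells at 8 against 6 weeks the change was 1.33 (SE 0.24, adjusted p = 0.0144). That call was lost without Krt14 6-week replicate 1 (1.11, adjusted p = 0.0686), Krt14 8-week replicate 1 (1.35, adjusted p = 0.0986) or Krt14 8-week replicate 2 (1.30, adjusted p = 0.138).

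Nr4a2 (chr2:57106830-57124003, minus strand) was low in all groups and its libraries at 6 weeks differed widely. It had 58 and 125 normalized counts in GOF cells, 273 and 268 in Krt14 cells at 8 weeks and 82 and 77 in Inv cells. It had 117 and 163 in LOF cells, against 225 and 574 in Krt14 cells at 6 weeks. The GOF libraries lay on either side of the Inv libraries. Nr4a2 fell in LOF cells by 1.37 (SE 0.43, adjusted p = 0.032), a call lost without LOF replicate 1 (-1.14, adjusted p = 0.172), LOF replicate 2 (-1.61, adjusted p = 0.0736) or Krt14 6-week replicate 2 (-0.70, adjusted p = 0.293). It rose by 1.75 in Krt14 against Inv cells (SE 0.43, adjusted p = 0.0152), with adjusted p of 0.0862 and 0.104 without Inv replicate 1 and 2 and of 0.0874 and 0.089 without Krt14 replicate 1 and 2. In GOF against Krt14 cells it fell by 1.65 (SE 0.43, adjusted p = 0.0148). That call was lost without GOF replicate 1 (-1.11, adjusted p = 0.0806), Krt14 8-week replicate 1 (-1.64, adjusted p = 0.0844) or Krt14 8-week replicate 2 (-1.67, adjusted p = 0.0779). GOF against Inv cells gave 0.10 (adjusted p = 0.911), and 8 against 6 weeks gave -0.41 (adjusted p = 0.621).

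Ier3, a stress-inducible regulator of cell survival (chr17:35821684-35822923, plus strand), changed most of the 10 genes in LOF cells. LOF cells had 347 and 418 normalized counts, against 2243 and 2622 in Krt14 cells at 6 weeks, a log2 change of -2.67 (SE 0.29, adjusted p = 8.61e-05). GOF cells had 486 and 1004, Krt14 cells at 8 weeks 1500 and 1548, and Inv cells 349 and 226. Unlike most of the genes, Ier3 was highest in Krt14 cells at 6 weeks. Its change at 8 against 6 weeks was -0.67 and did not pass (adjusted p = 0.21). Ier3 did pass there in a fit to these 2 groups alone (adjusted p = 0.00417). With log2 or linear Xist as covariate Ier3 also passed (adjusted p = 0.0471 and 0.0464). It rose by 2.44 in Krt14 against Inv cells (SE 0.29, adjusted p = 2.14e-04). It rose by 1.31 in GOF against Inv cells (SE 0.29, adjusted p = 0.0129), which was lost without GOF replicate 2 (0.79, adjusted p = 0.0562) or Inv replicate 2 (1.00, adjusted p = 0.143). In GOF against Krt14 cells it fell by 1.12 (SE 0.29, adjusted p = 0.015). That was lost without GOF replicate 1 (-0.60, adjusted p = 0.0647), Krt14 8-week replicate 1 (-1.15, adjusted p = 0.0787) or Krt14 8-week replicate 2 (-1.10, adjusted p = 0.0862).

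Ier2, a nuclear protein of the immediate early response (chr8:84661331-84662852, minus strand), had log2 changes between -0.83 and 1.09 in the 5 comparisons. It had 1549 and 2348 normalized counts in GOF cells, 2626 and 2851 in Krt14 cells at 8 weeks and 1413 and 1161 in Inv cells. It had 1019 and 1040 in LOF cells, against 1835 and 1839 in Krt14 cells at 6 weeks, and the LOF libraries were the lowest of all 10. Ier2 fell by 0.83 in LOF cells (SE 0.17, adjusted p = 0.00392) and rose by 1.09 in Krt14 against Inv cells (SE 0.17, adjusted p = 0.00123). The rise of 0.57 in GOF against Inv cells (SE 0.17, adjusted p = 0.0443) was lost without GOF replicate 2 (0.27, adjusted p = 0.22), Inv replicate 1 (0.72, adjusted p = 0.0865) or Inv replicate 2 (0.43, adjusted p = 0.282), and under median-of-ratios scaling (0.59, adjusted p = 0.0504). The fall of 0.52 in GOF against Krt14 cells (SE 0.17, adjusted p = 0.0421) was lost without GOF replicate 1 (-0.22, adjusted p = 0.203), Krt14 8-week replicate 1 (-0.58, adjusted p = 0.116) or Krt14 8-week replicate 2 (-0.46, adjusted p = 0.201). At 8 against 6 weeks it gave 0.57 (adjusted p = 0.0804).

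The libraries of a group differed more for these genes in GOF cells than in other groups. The median absolute log2 difference between replicates over the 10 genes was 0.90 in GOF cells, 0.06 in Krt14 cells at 8 weeks, 0.25 in Inv cells, 0.44 in LOF cells and 0.22 in Krt14 cells at 6 weeks. Over all tested genes it was 0.38, 0.19, 0.19, 0.23 and 0.22 in the same groups. GOF replicate 2 was above replicate 1 for 8 genes, by more than 1 on the log2 scale for 5. All 10 genes were higher in LOF replicate 2 than in LOF replicate 1, with none over 1. Birc5 and Xist were also higher in GOF replicate 2, with the counts given above, and their part in these differences was not tested.

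**Figure D4:**
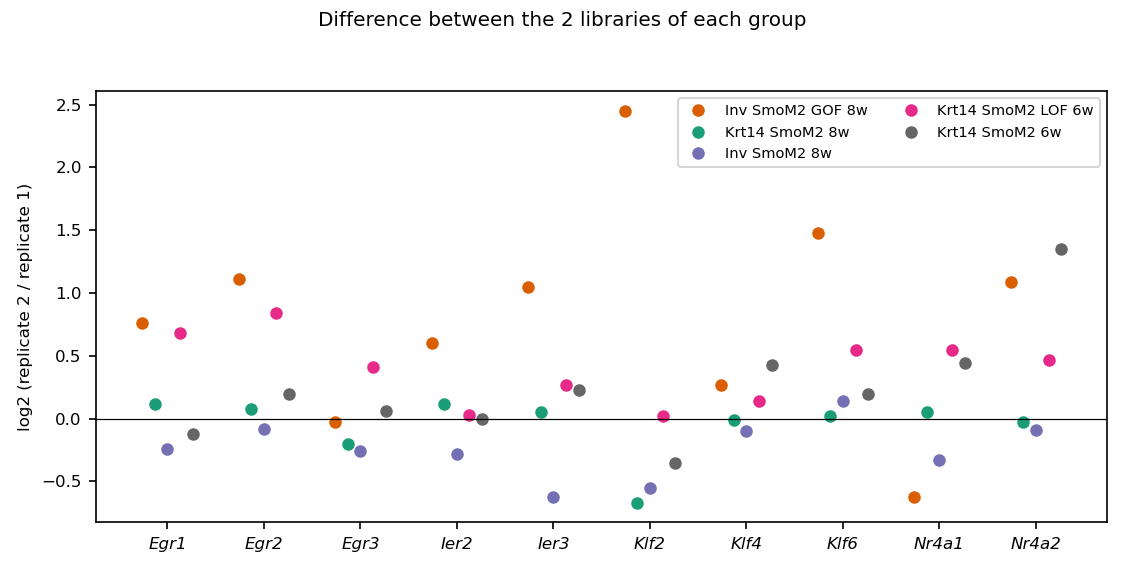
Log2 ratio of replicate 2 over replicate 1 (vertical axis) for each gene in each group; 1 point is 1 gene in 1 group. GOF points reach 2.45 for Klf2, while all Krt14 8-week points other than Klf2 lie close to 0.

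Other members of the same families were counted next, from lists chosen with earlier results of these data known. Nr4a3, Ier5 and Ier5l all fell in LOF cells, beside 11.4% of all tested genes, and all 3 fell in GOF against Krt14 cells, beside 12.5%. Nr4a3, the remaining Nr4a receptor, had 70 and 104 normalized counts in LOF cells, against 299 and 1550 in Krt14 cells at 6 weeks (log2 change -2.98, SE 0.60, adjusted p = 0.0035). Ier5 had 258 and 226 in LOF cells, against 965 and 881 in Krt14 cells at 6 weeks (log2 change -1.93, adjusted p = 1.61e-05). In GOF against Inv cells Ier5 and Ier5l fell, by 0.73 (adjusted p = 0.0117) and 1.28 (adjusted p = 0.00629), and Nr4a3 did not pass. This is the direction of Egr3 and not of the 7 genes that rose there. In Krt14 against Inv cells Ier5 rose by 0.94 (adjusted p = 0.00205) and Nr4a3 by 2.73 (adjusted p = 0.00864).

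Of the other Klf genes 13 were tested. In LOF cells 2 rose and 3 fell, beside 19.5% and 11.4% of all tested genes. In GOF against Inv cells 5 rose and 0 fell, beside 6.87% and 8.4%, and in Krt14 against Inv cells 4 rose and 0 fell, beside 8.18% and 11.4%. In GOF against Krt14 cells 2 rose and 2 fell, beside 15.2% and 12.5%, and at 8 against 6 weeks 1 rose, beside 4.02%. Klf15, a glucocorticoid-responsive factor, had 677 and 871 normalized counts in LOF cells, against 55 and 52 in Krt14 cells at 6 weeks (log2 change 3.82, SE 0.21, adjusted p = 1.94e-06). Klf10, a TGF-beta-inducible factor, fell to 999 and 972 in LOF cells, against 1957 and 2369 in Krt14 cells at 6 weeks (log2 change -1.13, adjusted p = 0.0018). Klf5, a factor of proliferating epithelium, had 2564 and 4763 in GOF cells and 1457 and 1418 in Inv cells (log2 change 1.28, adjusted p = 0.00494). Klf3 had 2920 and 2746 in GOF cells and 1525 and 1520 in Inv cells (log2 change 0.89, adjusted p = 4.54e-04). Klf9, also glucocorticoid-responsive, had 955 and 4381 in GOF cells and 260 and 243 in Krt14 cells at 8 weeks (log2 change 3.02, adjusted p = 0.00135). The Egr co-repressors Nab1 and Nab2 and the factor Egr4 gave 1 call in all 5 comparisons, a fall of Nab1 by 0.49 in LOF cells (adjusted p = 0.0119).

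Immediate early genes outside these families were set beside the same shares of all tested genes. How the counts of any of these lists depend on single libraries was not examined. Over all tested genes, the calls for GOF against Inv cells went from 3359 to 583 in a fit to these 2 groups alone. Among 9 AP-1 and ATF genes, 1 rose and 3 fell in LOF cells (all tested genes: 19.5% and 11.4%), and 5 rose and 0 fell in GOF against Inv cells (6.87% and 8.4%). In Krt14 against Inv cells 7 rose and 0 fell (8.18% and 11.4%), and in GOF against Krt14 cells 1 rose and 4 fell (15.2% and 12.5%). At 8 against 6 weeks 4 rose and 0 fell (4.02% and 0.855%). Fosl1, an AP-1 subunit, had 53 and 82 normalized counts in LOF cells, against 848 and 1292 in Krt14 cells at 6 weeks (log2 change -3.97, SE 0.40, adjusted p = 5.18e-05). Fos had 14589 and 14061 in Krt14 cells at 8 weeks, 3177 and 2651 in Inv cells and 3542 and 3515 in Krt14 cells at 6 weeks. It rose in Krt14 against Inv cells by 2.30 (adjusted p = 4.46e-06) and in Krt14 cells at 8 against 6 weeks by 2.02 (adjusted p = 6.58e-05). Fosb rose by 2.29 at 8 against 6 weeks (adjusted p = 4.19e-05), where of the 10 genes only Nr4a1 rose.

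Among 19 further immediate early genes, 1 rose and 9 fell in LOF cells (all tested genes: 19.5% and 11.4%). In GOF against Inv cells 12 rose and 0 fell (6.87% and 8.4%), and in Krt14 against Inv cells 12 rose and 1 fell (8.18% and 11.4%). In GOF against Krt14 cells 2 rose and 5 fell (15.2% and 12.5%), and at 8 against 6 weeks 1 rose and 2 fell (4.02% and 0.855%). Arc had 70 and 55 normalized counts in LOF cells, against 1171 and 1330 in Krt14 cells at 6 weeks (log2 change -4.31, SE 0.21, adjusted p = 1.22e-06). Sgk1, a serum- and glucocorticoid-induced kinase, had 2972 and 12731 in GOF cells and 892 and 901 in Inv cells (log2 change 2.78, SE 0.47, adjusted p = 0.00361). Like Klf6 and Klf2, Sgk1 was far higher in GOF replicate 2. So were other genes that rose against Inv cells, among them Per1 (2732 and 7589), Nfkbiz (1217 and 3385) and Zfp36 (707 and 1976). Ctgf (2287 and 2364) and Arc (145 and 151) rose there with nearly equal GOF libraries. Among 14 feedback genes of the ERK pathway, 2 rose and 6 fell in LOF cells (all tested genes: 19.5% and 11.4%). Dusp6, a phosphatase of ERK, had 729 and 1105 in LOF cells, against 7533 and 7185 in Krt14 cells at 6 weeks (log2 change -3.03, SE 0.28, adjusted p = 3.10e-05). In GOF against Inv cells 6 of the 14 rose and 1 fell (6.87% and 8.4%), and in Krt14 against Inv cells 7 rose and 3 fell (8.18% and 11.4%). Against Krt14 cells, GOF cells had 4 that rose and 3 that fell (15.2% and 12.5%). Phlda1 (-3.13, adjusted p = 3.00e-05) and Dusp6 (-2.06, adjusted p = 4.02e-04) were among the 3 that fell. The median log2 change there was 0.05 for the 14, where that of the 10 genes was -1.11. It was -0.24 for the 9 AP-1 and ATF genes and -0.08 for the 19 further immediate early genes. At 8 against 6 weeks 2 of the 14 rose and 0 fell (4.02% and 0.855%). Errfi1, an inhibitor of the EGF receptor, had 2520 and 10337 in GOF cells and 565 and 520 in Inv cells (log2 change 3.23, SE 0.45, adjusted p = 0.00121). Dusp4, a related phosphatase, had 253 and 302 in GOF cells and 835 and 775 in Inv cells (log2 change -1.54, adjusted p = 0.00147).

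Regulators that act upstream were counted as well. Of 11 SRF, TCF and CREB genes, 2 rose and 1 fell in LOF cells, beside 19.5% and 11.4% of all tested genes. In GOF against Inv cells 2 rose and 1 fell, beside 6.87% and 8.4%, and in Krt14 against Inv cells 2 rose and 0 fell, beside 8.18% and 11.4%. In GOF against Krt14 cells 3 rose and 2 fell, beside 15.2% and 12.5%. At 8 against 6 weeks 0 passed, beside 4.88%. Elk3, a ternary complex factor that partners SRF, had 238 and 181 normalized counts in LOF cells, against 1199 and 1488 in Krt14 cells at 6 weeks (log2 change -2.68, SE 0.18, adjusted p = 4.42e-06). It had 914 and 1008 in Krt14 cells at 8 weeks and 496 and 420 in Inv cells (log2 change 1.07, adjusted p = 0.00168). Elk3 was the only 1 of the 11 that fell in LOF cells. Crtc1 rose there by 1.04 (adjusted p = 0.00257) and Mkl2 by 0.56 (adjusted p = 0.00315), and the other 8, with Srf among them, did not pass. Of 8 heat shock genes that tissue dissociation can induce, 2 rose and 5 fell in LOF cells, beside 19.5% and 11.4% of all tested genes. In GOF against Inv cells 0 rose and 2 fell, beside 6.87% and 8.4%, and in Krt14 against Inv cells 3 rose and 0 fell, beside 8.18% and 11.4%. In GOF against Krt14 cells 0 rose and 5 fell, beside 15.2% and 12.5%, and at 8 against 6 weeks 0 rose and 3 fell, beside 4.02% and 0.855%. Hsph1, a heat shock chaperone, had 642 and 524 in LOF cells, against 2119 and 2604 in Krt14 cells at 6 weeks (log2 change -2.02, adjusted p = 1.21e-05). The 2 that rose in LOF cells were Hspa1a and Hspa1b. Hspa1a had 1752 and 1725 there, against 1047 and 1002 in Krt14 cells at 6 weeks (log2 change 0.76, adjusted p = 0.00226). Hspa1b had 3147 and 3191, against 2293 and 2322 (log2 change 0.46, adjusted p = 0.034). In GOF against Inv cells Hsph1 fell by 0.57 (adjusted p = 0.0341), while 7 of the 10 genes rose. It fell by 1.65 in GOF against Krt14 cells (adjusted p = 4.81e-05), where 7 of the 10 genes fell. The part of the heat shock genes in the results was not tested.

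**Figure D5:**
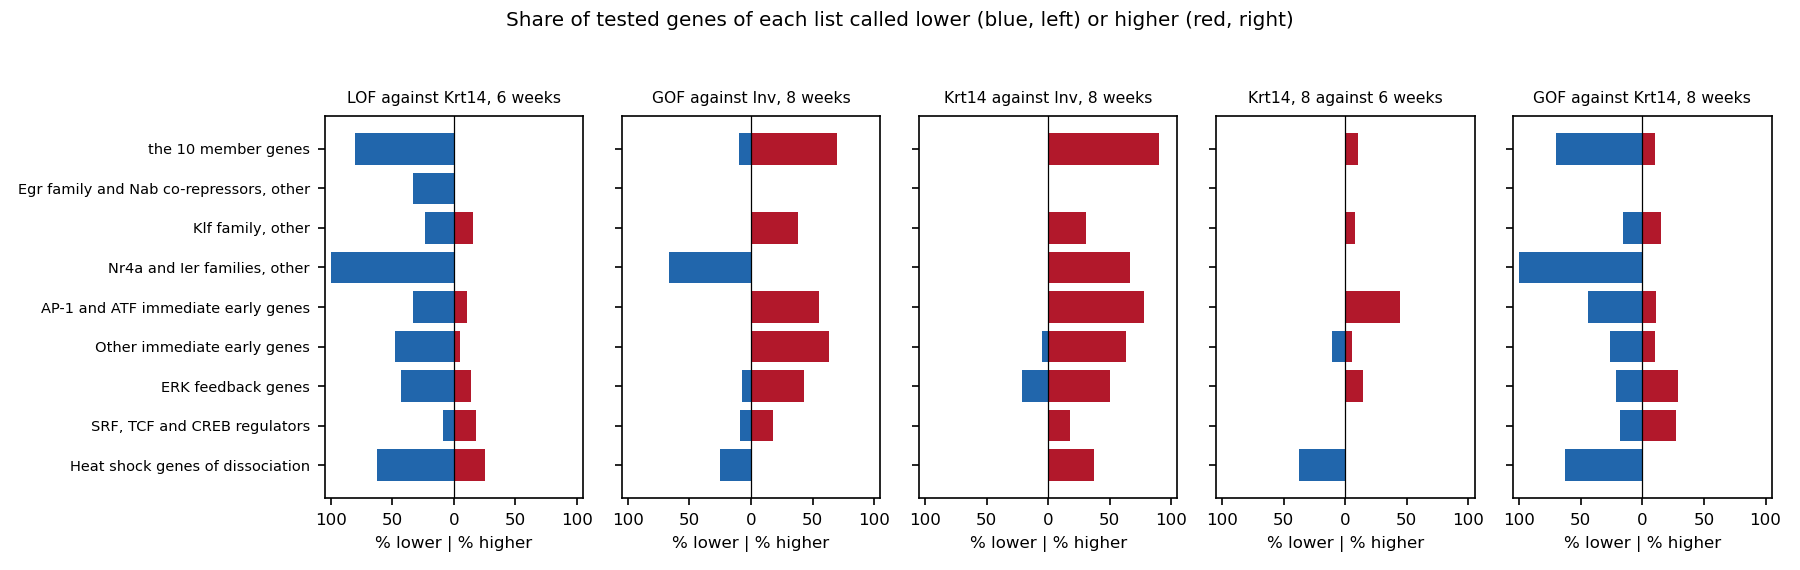
Share of tested genes of each list (horizontal axis, %) that passed the test lower (blue, left) and higher (red, right) in the 5 comparisons. The 10 genes are the top row; most of their bar lies on the lower side for LOF and for GOF against Krt14, and on the higher side for the comparisons against Inv.

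Across the 10 libraries the levels of 9 of the genes went together and Klf2 did not. Pearson's r of log2 of normalized count + 1 lay between 0.39 and 0.97 for the 36 pairs without Klf2, with a median of 0.795. It lay between -0.56 and 0.30 for the 9 pairs with Klf2, with a median of -0.12. The highest r, 0.97, was between Egr1 and Ier2, and the lowest, -0.56, between Egr3 and Klf2. These values describe 10 libraries that share 5 groups and carry no test.

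The tested genes most like each member over the same 10 libraries, again as a description, included other response genes. For Egr1 they were Fbxw11 (r = 0.958), Akap11 (r = 0.956) and Cnksr3 (r = 0.947). For Egr2 they were Prdm1 (r = 0.973), Klk7 (r = 0.968) and Barx2 (r = 0.966). Kdm6b, a histone demethylase, was most like Egr3 (r = 0.987), followed by Ccdc88a (r = 0.977) and Ifrd1 (r = 0.973). For Ier2 they were Greb1 (r = 0.959), Zfp36 (r = 0.958), whose protein promotes decay of mRNAs, and Pstpip1 (r = 0.951). Tgfa, a ligand of the EGF receptor, was most like Ier3 (r = 0.983), followed by Efhd2 (r = 0.980) and Ptges (r = 0.979). Ptprz1 was most like Klf4 (r = 0.967), and Ndel1 most like Klf6 (r = 0.980). For Klf2 the likest was Fam134c (r = 0.974), for Nr4a1 Mtmr6 (r = 0.946) and for Nr4a2 Lmtk2 (r = 0.953), with Nr4a3 at r = 0.95.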

How the data were processed

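RNA of sorted cells was made into libraries with the Ovation Solo kit, per the labels' protocols. The submitters' processing notes name STAR, HTSeq, GRCm38 and mm10. No version and no normalization method is named there. The values deposited by the authors are normalized counts, a score that is not a raw count: each library sums to 20011195 to 20014054, and 99.3% to 99.9% of values below 20000 are whole multiples of 1 step per library, rounded up to a whole number. Reads recovered from the steps served for depth and for 1 alternative only. At this depth 3 reads equal 6.76 to 7.80 normalized counts.

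Genes that reached 10 normalized counts in 2 or more libraries (21995 of 49671) were fitted with limma 3.58.1 in R 4.3.3 on log2(normalized count + 1), in 1 model of all 5 groups with an intensity trend, and p-values were Benjamini-Hochberg adjusted over all genes. Fold changes are on this scale and understate those of low genes. The model was checked on simulated data. With 2 libraries against 2, the smallest p of an exact permutation test of 1 gene is 0.333, so none was run. Replicate numbers did not pair the libraries. Gene models were GENCODE M21 on GRCm38, and no member overlaps another gene.

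The members and gene lists were chosen with earlier results of these data known. Named besides the members were, per list and comparison, up to 3 called genes with the smallest p and a mean of at least 50, other family members, and the genes of highest correlation with each member. An edgeR test on recovered reads, listed as an alternative, was not run because the values are not counts. The limma-voom fit was run on these recovered reads and has the same limit.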

Additional observations from a re-analysis of the deposited data

How the results depend on the processing

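The edgeR alternative on recovered reads was not run, because the deposited values are not read counts, a limit that the voom fit on the same reads shares. The voom fit and the fits with Xist as a covariate were chosen after seeing the data. Of the 10 genes' log2 changes under all alternatives, 677 stayed on their side of the threshold, 90 lost the call, 27 gained it and 6 called changes were reversed. A further 11 changes that were not called also turned sign, among them Klf2 in LOF cells with log2 Xist (-3.85) and linear Xist (-0.09), Klf4 at 8 against 6 weeks under median-of-ratios scaling (-0.03) and Klf6 in GOF against Krt14 cells without GOF replicate 1 (0.07). The 6 reversals all came with log2 Xist as covariate: GOF against Inv Egr1 -0.99, Ier2 -0.65, Ier3 -0.78, Klf2 -1.43 and Klf6 -1.14, and GOF against Krt14 Klf2 -2.65. The cause was not tested beyond the fact that Xist nearly separates these groups.

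Genes called were 6805 for LOF, 3359 for GOF against Inv, 4309 for Krt14 against Inv, 1073 for 8 against 6 weeks and 6098 for GOF against Krt14. With log2 Xist as covariate they were 941 for LOF, 40 for GOF against Inv, 1780 for 8 against 6 weeks and 202 for GOF against Krt14. With linear Xist they were 1800 for GOF against Inv and 2012 for 8 against 6 weeks. Fits to the 2 groups compared called 583 (GOF against Inv), 6501 (Krt14 against Inv), 2366 (8 against 6 weeks) and 3301 (GOF against Krt14). For 8 against 6 weeks no filter gave 536, quantile normalization 468 and voom 701. Without each library in turn the counts were 3759 to 5239 for LOF, 913 to 6198 for GOF against Inv, 1897 to 2253 for Krt14 against Inv, 77 to 829 for 8 against 6 weeks and 3308 to 7293 for GOF against Krt14.

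Of the 10 genes, 8, 8, 9, 1 and 8 were called in the same order. For LOF they were 5 with log2 Xist and 6 to 8 without each library. For GOF against Inv they were 1 with no filter, 0 with log2 Xist, 3 with linear Xist, 1 in the fit to 2 groups and 1 to 8 without each library. For Krt14 against Inv they were 8 without each library. For 8 against 6 weeks they were 2 with pseudocount 5, 0 with no filter, 2 with the replicate block, 2 with voom, 5 with either Xist term, 7 in the fit to 2 groups and 0 to 1 without each library. For GOF against Krt14 they were 4 with no filter, 5 with log2 Xist, 5 in the fit to 2 groups and 3 to 8 without each library.

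The replicate block called 6707, 3414, 4249, 987 and 6042 genes in the order above. The log2 differences between replicate 1 and replicate 2 of a group correlated with those of another group between -0.05 and 0.04. The replicate numbers therefore do not pair the libraries. The block added Klf6 for LOF (adjusted p = 0.0268) and Egr1 for 8 against 6 weeks (adjusted p = 0.0415) and lost no member. Median-of-ratios scaling moved the median change of all genes to 0.02 for LOF and 0 for 8 against 6 weeks. The share of called genes that were higher was 63.1% for LOF, 49% under that scaling and 50.9% under quantile normalization, and for 8 against 6 weeks 82.5%, 53.6% and 67.5%, and 68.9% with voom. With 2 libraries per group, changes of Klf2 and Nr4a2, the lowest members, have the largest errors.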
